A study of Mus musculus with 6 samples.

Results

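Chosen with earlier results of these data known, the genes described here are 40 components and regulators of the cell cycle, listed by function. They fall into 10 cyclins, kinases and pocket or E2F proteins of the G1 phase and the entry into S phase, 4 cyclin-dependent kinase inhibitors, 11 genes of DNA replication and 15 genes of mitosis. Of the 40, 39 were measured and tested, among 14071 genes tested in all. A probe set is a group of short probes read together as a value for a gene. Each gene is represented by its brightest probe set over the 6 arrays, among probe sets annotated to that gene only. Whether the probes also bind transcripts of other genes was not tested. For Ccnb1 (cyclin B1) no probe set was found in the annotation, so it has no expression value here. Its promoter is among the windows counted below.

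The arrays came from the mouse genital tubercle, an outgrowth of the embryo from which the external genitalia develop, at 12.5 days post coitum. All embryos were of mixed background and carried both Shhtm1(EGFP/cre)Cjt, which makes a green fluorescent protein and Cre recombinase from the Shh locus, and Gt(ROSA)26Sortm3(CAG-EYFP)Hze, which makes yellow fluorescent protein once Cre has acted. Cells were sorted into a reporter-positive fraction, labelled as urethral epithelium, and a reporter-negative fraction, labelled as genital tubercle, with 3 arrays in each group. Replicates 1, 2 and 3 of either group were pools of 3, 5 and 2 littermates of both sexes. Because the Cre reporter stays on in the descendants of a cell, the positive fraction holds cells with present or past Shh expression. The negative fraction holds all other cells of the tubercle.

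Cells enter the cycle when D-type cyclins with Cdk4 or Cdk6, and then E-type cyclins with Cdk2, phosphorylate Rb1 and release E2F factors, which switch on genes of DNA replication. Kinase inhibitors of the Cip/Kip and Ink4 families oppose these steps, and their RNA is often high where cells stop dividing to differentiate. Transcripts of the mitotic genes accumulate later, in G2 and M phase, and are kept low in resting cells by a repressor complex that binds an element called the CHR. In a bulk sample, fewer cells of a type and less RNA per cell cannot be told apart, so an equal level of mitotic transcripts does not give the share of dividing cells.

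These groups also differ in their promoters. The E2F site and the CHR belong to the regulation of these groups described above, so the motif counts are a description and not an independent feature. RefSeq promoter windows (GRCm38.p6, 300 bases that span the start site) were found for 31 of the 40 genes, 35 windows in all. The CHR was searched for on both strands as TTTGAA and, in its second common spelling, as TTCGAA, and it stood in 11 of 12 windows of mitotic genes (91.7%), against 2 of 11 for replication genes, 0 of 7 for G1/S genes and 19.2% of all 32851 windows. The CCAAT box, on either strand, stood in 12 of 12 mitotic and 9 of 11 replication windows, against 37.4% of all. The E2F site was searched for on both strands as TTTCGCGC and, in its second common spelling, as TTTGGCGC, and it stood in 4 of 11 replication windows and 1 of 12 mitotic ones, against 0.813% of all. The letters of these 3 motifs are not contained in one another, but 2 E2F matches on opposite strands can overlap, as in Mcm5. A match is a description of the sequence, and binding was not measured. Stretches from 4 mitotic and 2 replication genes show the arrangement. A match on the other strand appears in them as its reverse complement, as ATTGG does for the CCAAT box. The stretches are printed along the gene's own strand with matches to the motifs in capitals. They lie at chr10:69352913-69353002 (minus strand, Cdk1), chr7:135716464-135716529 (minus, Mki67), chr4:118437344-118437403 (minus, Cdc20), chr19:37376322-37376381 (plus, Kif11), chr8:75109349-75109443 (plus, Mcm5) and chr1:128359741-128359825 (minus, Mcm6).
Cdk1: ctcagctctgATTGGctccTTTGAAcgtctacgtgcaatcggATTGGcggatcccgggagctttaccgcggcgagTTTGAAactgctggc
Mki67: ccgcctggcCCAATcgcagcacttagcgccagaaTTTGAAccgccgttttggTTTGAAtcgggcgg
Cdc20: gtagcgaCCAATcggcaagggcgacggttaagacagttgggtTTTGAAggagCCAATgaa
Kif11: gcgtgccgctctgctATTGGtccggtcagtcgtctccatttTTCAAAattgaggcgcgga
Mcm5: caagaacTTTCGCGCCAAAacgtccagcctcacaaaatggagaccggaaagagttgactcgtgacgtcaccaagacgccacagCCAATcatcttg
Mcm6: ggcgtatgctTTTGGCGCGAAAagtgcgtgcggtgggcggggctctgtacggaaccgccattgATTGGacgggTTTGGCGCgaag

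The sort and the arrays bear on every value that follows. Simple epithelial markers summed to a normalized signal of 751, 1768 and 1657 in positive replicates 1, 2 and 3, against 53 to 62 in negative arrays, and 7 of 7 were higher in all positive arrays. Mesenchyme markers summed to 2268, 157 and 381, against 2222 to 2851, so positive replicate 1 was at the level of the negative arrays. Red blood cell markers summed to 682 to 1495 against 3124 to 6000, leukocyte markers to 55 to 131 against 9 to 27, and endothelial markers to 12 to 35 against 8 to 22. Of these lists Pecam1, Tie1, Cd68 and Tyrobp did not pass the filter on low values and are in no sum. The part of these cells in the cell cycle values was not tested. Positive replicate 3 was dim. There 24.6% of named probe sets were above the brightest of 27 blank control probe sets, against 44.0% to 59.3% in the other 5 arrays. These controls are bacterial sequences. As deposited, the brightest exceeded the median named probe set in positive replicates 2 (4.41 against 3.56) and 3 (1.12 against 0.340). The Spearman correlation of positive replicate 3 with the other arrays, over all genes tested, was only 0.225 to 0.289. Each of the other 5 arrays reached 0.858 to 0.937 with its closest array. Results are therefore also given without positive replicate 3.

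Cell cycle transcripts were measurable in most arrays. The brightest blank control was exceeded by 39, 39 and 36 of the 39 genes in the negative arrays (replicates 1, 2 and 3), and by 38, 36 and 24 in the positive arrays. The share of 61.5% in positive replicate 3 stood beside 41.1% of all genes tested in that array. All 14 mitotic genes were above the blank controls in each of the other 5 arrays, and 8 of 14 were in positive replicate 3.

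**Figure D1:**
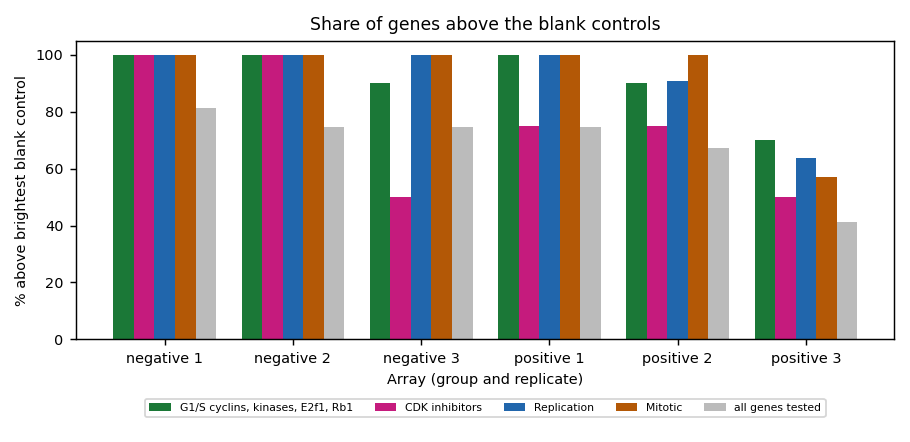
Percent of genes whose deposited signal exceeded the brightest blank control probe set (vertical axis) on each of the 6 arrays (horizontal axis), for the 4 groups of cell cycle genes and for all 14071 genes tested (grey). Positive replicate 3 has the lowest grey bar, 41.1%, and 24 of 39 cell cycle genes above the controls.

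No cell cycle gene passed the test between reporter-positive and reporter-negative cells. Limma with Benjamini-Hochberg adjustment called 0 of 39 at an adjusted p of 0.05, where it called 0.0142% of all genes. At an unadjusted p under 0.05 it counted 2 of 39, the inhibitors Cdkn1a and Cdkn1b, beside 5.17% of all genes. Groups did not overlap for 3 of 39 genes, beside 13.3% of all genes. The lowest adjusted p of any member was 0.725. Differences are given as positive minus negative on the log2 scale of normalized signal plus 16. They ranged from -1.53 to 1.60 with standard errors of 0.17 to 0.81, and the 95% intervals of single genes reached -3.21 and 2.63. Differences were above 0 for 11 of 39 members, beside 47.2% of all genes, and were 1 or more in size for 4 (Cdkn1a, Cdk6, Rrm1 and Cdc20), beside 4.87%.

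Without positive replicate 3 limma again called 0 of 39, where it called 0.611% of all genes (0.560% higher and 0.0509% lower). Of the members, 5 of 39 had an unadjusted p under 0.05, beside 9.15% of all. These 5 were Ccnd1, E2f1, Rb1, Cdkn1a and Cdkn1b. Values did not overlap for 7 of 39 genes, beside 24.5% of all. Differences were above 0 for 14 of 39, beside 49.5% of all, and 1 or more in size for 2 (Cdkn1a and Ccnd1), beside 2.52%. Cdkn1a had the lowest adjusted p, 0.126, and standard errors lay between 0.19 and 0.42.

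**Figure D2:**
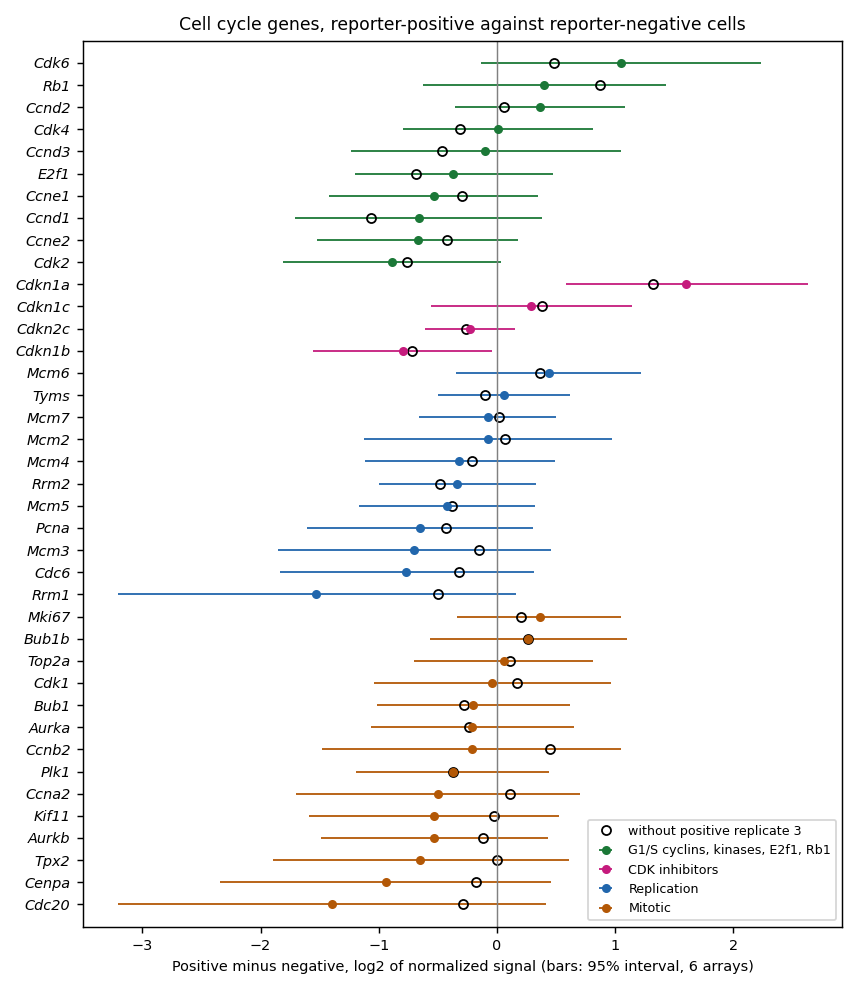
Log2 difference of each of 39 genes between positive and negative cells (horizontal axis), with filled points and 95% interval bars from 6 arrays and open points without positive replicate 3. Cdkn1a at 1.60 and Cdkn1b at -0.80 are the members whose bars do not cross 0, and neither passed after adjustment.

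The kinase inhibitors showed no common direction. Cdkn1a (p21, the inhibitor induced by p53 and in differentiating epithelia) read 5.19, 6.22 and 6.87 on the normalized log2 scale in positive replicates 1, 2 and 3 and 4.76, 4.59 and 4.11 in the negative ones. Every positive array was above every negative array, and this was the only member of which that held, beside 6.29% of all genes. The difference was 1.60 (SE 0.46, 95% interval 0.58 to 2.63, unadjusted p = 0.00600, adjusted p = 0.725, limma), a 3.04-fold change on this scale, and 1.32 (SE 0.34) without positive replicate 3. As deposited its probe set read 20.5, 37.8 and 2.35 against 18.5, 16.4 and 0.44, and negative replicate 3 was not above the blank controls. A second probe set of Cdkn1a was above the blank controls on 1 array, differed by 0.17 and did not pass the filter.

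Cdkn1b (p27, which holds resting cells in G1) went the other way. It read 4.61, 4.77 and 4.27 in positive and 5.15, 5.83 and 5.07 in negative replicates 1, 2 and 3, again with no overlap, and positive replicate 3 was not above the blank controls. The difference was -0.80 (SE 0.34, 95% interval -1.56 to -0.04, adjusted p = 0.725, limma), and -0.72 without positive replicate 3. Cdkn1b and Ccne2 were the 2 members of 39 that were lower in every positive array, beside 6.99% of all genes. A second probe set of Cdkn1b was near background and differed by -0.13.

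Cdkn1c (p57, an imprinted inhibitor of differentiating embryonic tissue) was bright in both fractions. It read 10.03, 8.43 and 8.96 in positive and 8.93, 8.73 and 8.89 in negative replicates 1, 2 and 3. Positive replicate 1 was the highest of all arrays and positive replicate 2 the lowest, so the groups overlapped (difference 0.29, SE 0.38, and -0.50 with arrays scaled to a common median). Cdkn2c (p18, an inhibitor of Cdk4 and Cdk6) read 4.05, 4.33 and 4.19 against 4.44, 4.59 and 4.23. It was above the blank controls in negative replicates 1 and 2 only, and no fold is given for it.

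**Figure D3:**
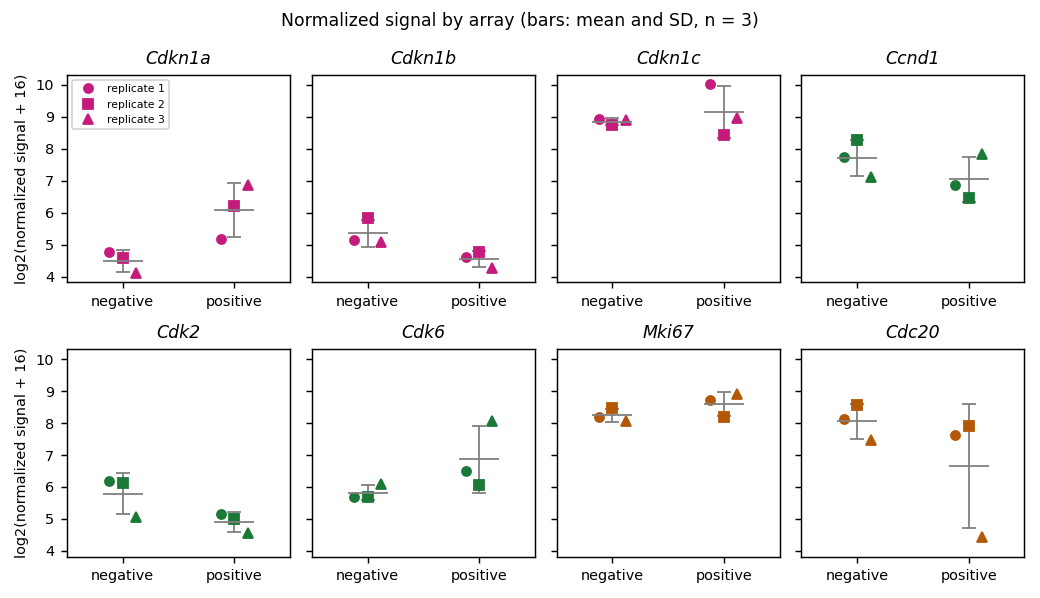
Normalized log2 signal of 8 cell cycle genes (vertical axes) in negative and positive arrays (horizontal axes), with a symbol for each replicate and a grey bar for the mean and SD of 3 arrays. Cdkn1a is higher and Cdkn1b lower in every positive array, and for Cdc20 positive replicate 3 lies at 4.43 while the other arrays lie between 7.48 and 8.58.

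Among the G1/S genes no cyclin or kinase passed either, and 6 of 10 had a negative difference, with a median of -0.23. Without positive replicate 3 the median of the G1/S genes was -0.36, with 3 of 10 above 0, and without positive replicate 2 it was -0.06. Cdk6 (a partner of D-type cyclins) read 6.49, 6.06 and 8.06 in positive and 5.67, 5.70 and 6.09 in negative replicates 1, 2 and 3. Positive replicate 2 lay just within the negative range, and the difference of 1.05 (SE 0.53, adjusted p = 0.725, limma) was 0.48 without positive replicate 3. A further probe set of Cdk6, above the blank controls on 6 of 6 arrays, differed by 0.02, and another, not above them on any array, by -0.03. Cdk2 (the partner of cyclins E and A) read 5.15, 5.00 and 4.56 against 6.20, 6.12 and 5.06. Negative replicate 3 lay below positive replicate 1, and the difference was -0.89 (SE 0.41, adjusted p = 0.725, limma). Ccne2 (cyclin E2) read 5.15, 5.36 and 4.42 against 5.59, 5.96 and 5.41, with no overlap and a difference of -0.67 (SE 0.38). In positive replicate 3 neither Cdk2 nor Ccne2 was above the blank controls, and without that array they differed by -0.76 and -0.42.

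None of the D-type cyclins passed, and with arrays scaled to a common median Ccnd1, Ccnd2 and Ccnd3 differed by -1.43, -0.50 and -0.61. Ccnd1 (cyclin D1, a target of growth factor and Wnt signals) read 6.87, 6.45 and 7.83 in positive and 7.74, 8.27 and 7.13 in negative replicates 1, 2 and 3. Its difference was -0.66 (SE 0.47) over 6 arrays, where positive replicate 3 overlapped the negative ones, and -1.07 (SE 0.38, unadjusted p = 0.0126, adjusted p = 0.348, limma) without that array. The 2 further probe sets of Ccnd1 differed by -0.37 and -0.76. Ccnd2 (cyclin D2) read 8.48, 8.63 and 9.44 against 8.46, 8.33 and 8.68, with a difference of 0.36 that was 0.06 without positive replicate 3. Its probe sets gave differences of both signs, from -0.72 to 0.62. Ccnd3 (cyclin D3) read 6.17, 5.56 and 6.95 against 5.73, 6.09 and 7.14, a difference of -0.10 that ran from -0.47 to 0.32 as each array was left out.

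Of the other G1/S genes, Ccne1 (cyclin E1) differed by -0.53 (SE 0.40) and Cdk4, which was 8.20 or more on every array, by 0.01 (SE 0.36, and -0.90 with arrays scaled to a common median). Rb1 (the retinoblastoma protein, which holds E2F factors) read 5.52, 5.92 and 4.50 against 5.35, 5.15 and 4.23. Positive replicates 1 and 2 were above all negative arrays, with a difference of 0.87 (SE 0.36, adjusted p = 0.458, limma) without positive replicate 3 and 0.40 with it. E2f1 (the factor that Rb1 restrains) read 4.48, 4.39 and 5.20 against 5.02, 5.59 and 4.55, and its difference was -0.37, or -0.69 (SE 0.31) without positive replicate 3. E2f1 and Rb1 were each not above the blank controls on at least 1 array.

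Weighting the arrays gave another set of calls. With weights estimated in limma from how far each array departs from its group (0.0973 for positive replicate 3 and 5.17 for negative replicate 2), 5 of 39 members passed, where 3.41% of all genes did. Cdkn1a was higher at 1.10 (adjusted p = 0.0141), the single member called in that direction, beside 1.81% of all genes. The 4 called lower, beside 1.60% of all genes, were Ccnd1 at -1.31 (adjusted p = 0.0111), Cdkn1b at -0.92 (adjusted p = 0.0293), Cdk2 at -0.99 (adjusted p = 0.0309) and E2f1 at -0.89 (adjusted p = 0.0328). No replication or mitotic gene was called in this fit. None of these 5 was called in any of the other 11 alternatives, and negative replicate 2, the array with the highest weight, read the highest of all 6 arrays for Ccnd1, Cdkn1b and E2f1.

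Replication genes were expressed in both fractions and none passed. The median of 11 differences was -0.34, or -0.21 without positive replicate 3, beside -0.03 and 0.00 for all genes tested, and 9 of 11 were negative. The helicase subunits Mcm2 to Mcm7 unwind DNA at the fork. Mcm7 read 8.98, 9.37 and 8.89 in positive and 8.85, 9.22 and 9.41 in negative replicates 1, 2 and 3, a difference of -0.08 (SE 0.26, 95% interval -0.66 to 0.50). Its 3 dimmer probe sets differed by -1.09, -1.09 and -0.15, and Mcm7 differed by -0.60 as the mean over probe sets and by -0.91 with arrays scaled to a common median. Mcm6 read 7.67, 7.96 and 8.06 against 7.21, 7.28 and 7.89, a difference of 0.44 that was -0.39 with arrays scaled to a common median. Mcm5 averaged 7.86 ± 0.13 (SD, n = 3) in positive arrays and read 7.82, 8.65 and 8.38 in the negative ones, a difference of -0.42 (SE 0.33), and its dimmer probe sets differed by -1.44 and 0.50. For these subunits the groups overlapped, also for Mcm4 at -0.32 and Mcm2 at -0.08.

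The largest replication differences rested on positive replicate 3. Rrm1 (the large subunit of ribonucleotide reductase, which makes deoxynucleotides) read 7.70, 7.35 and 4.43 in positive and 7.62, 8.03 and 8.41 in negative replicates 1, 2 and 3. The difference of -1.53 (SE 0.75, adjusted p = 0.725, limma) was -0.50 without positive replicate 3, where this probe set was not above the blank controls. The dimmer probe sets of Rrm1 differed by -0.39 and 0.29. Rrm2, its small subunit and a transcript made mainly in S phase, read 8.18, 8.59 and 8.82 against 8.68, 9.21 and 8.71. On this normalized scale the same dim array was the highest of the positive values. As deposited, Rrm2 read 224, 259 and 6.43 in positive replicates 1, 2 and 3. Its difference was -0.34 (SE 0.30), 2 further probe sets of Rrm2 differed by -1.10 and -1.61, and the mean over probe sets by -1.02. Cdc6 (which loads the helicase) read 5.20, 5.93 and 4.18 against 5.43, 6.20 and 5.97, and its difference of -0.77 was -0.32 without that array. Mcm3 read 6.68, 6.37 and 4.88 against 6.41, 6.53 and 7.09, and its difference of -0.70 became -0.15. Pcna (the sliding clamp of DNA polymerase) read 8.51, 7.85 and 7.51 against 7.89, 8.60 and 9.34, a difference of -0.65 (SE 0.43). Tyms (thymidylate synthase) was dim throughout, at 4.27 to 4.87.

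No mitotic gene passed. The median of 14 differences was -0.29 over 6 arrays, -0.57 with these arrays scaled to a common median and -0.01 without positive replicate 3, where differences ran from -0.37 to 0.45. Mki67 (the proliferation marker Ki-67) read 8.71, 8.18 and 8.92 in positive and 8.19, 8.47 and 8.08 in negative replicates 1, 2 and 3. The groups overlapped, with a difference of 0.36 (SE 0.31, 95% interval -0.34 to 1.05) over 6 arrays, 0.20 without positive replicate 3 and -0.53 with arrays scaled to a common median. Top2a (topoisomerase II alpha, which untangles chromosomes) read 8.39, 7.84 and 7.95 against 7.63, 8.07 and 8.32, a difference of 0.06 (SE 0.34, 95% interval -0.70 to 0.81, and -0.78 with arrays scaled to a common median). Cdk1 (the kinase that drives entry into mitosis) read 7.48, 7.06 and 6.67 against 6.75, 6.68 and 7.89, a difference of -0.04 (SE 0.45, 95% interval -1.04 to 0.96). With intervals this wide, equal levels are not shown.

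Mitotic genes ranged widely in positive replicate 3. In that array Mki67, Top2a, Bub1b and Cdk1 read 8.92, 7.95, 7.75 and 6.67, within 1 of their negative means on the log2 scale, while 6 genes were not above the blank controls. Those 6 were Cdc20, Cenpa, Tpx2, Ccnb2, Kif11 and Aurkb, at 4.27 to 4.79. As deposited in that array Mki67, Top2a, Bub1b and Cdk1 read only 7.01, 3.68, 3.29 and 2.20, beside a brightest blank control of 1.12. There was no clear gap between the genes. Ccna2 was above that control at 1.46 but read 5.45, against a negative mean of 7.17, and Ccnb2 was just under the control at 1.06. Cdc20 (which activates the anaphase-promoting complex) read 7.64, 7.92 and 4.43 in positive and 8.12, 8.58 and 7.48 in negative replicates 1, 2 and 3. Its difference of -1.40 (SE 0.81, adjusted p = 0.725, limma) was -0.29 without positive replicate 3, and its dimmer probe sets differed by -0.84 and -0.24. Cenpa (the histone variant of centromeres) read 6.93, 6.79 and 4.56 against 6.62, 6.96 and 7.53, and -0.94 (SE 0.63) became -0.18. Tpx2 (a spindle assembly factor) read 6.79, 6.40 and 4.67 against 6.19, 6.70 and 6.92, and -0.65 (SE 0.56) became 0.00. Ccnb2 (cyclin B2) read 6.54, 6.90 and 4.79 against a mean of 6.29 ± 0.43 (SD, n = 3), and -0.21 became 0.45 (SE 0.35, adjusted p = 0.760, limma). What sets these genes apart in that array was not tested.

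**Figure D4:**
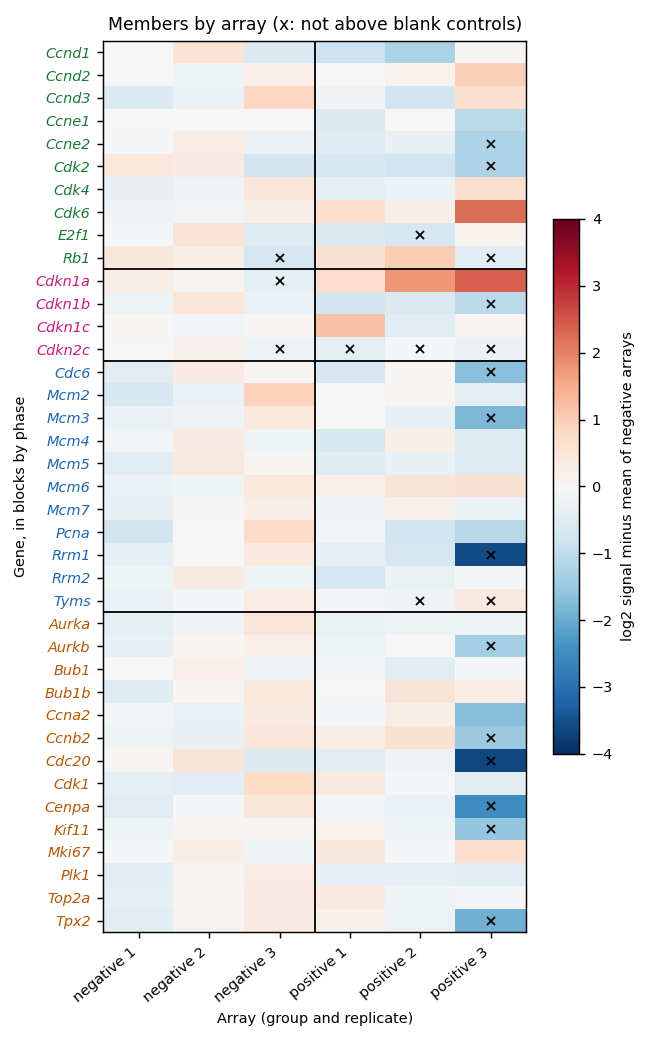
Normalized log2 signal of 39 cell cycle genes (rows, in blocks from G1/S through inhibitors and replication to mitosis) on 6 arrays (columns), as the deviation from the mean of the negative arrays, with a cross where the deposited signal was not above the brightest blank control. The blue cells with crosses are mostly in positive replicate 3, where Rrm1 and Cdc20 read 4.43, and the row of Cdkn1a is red in all positive arrays.

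Aurka and Plk1 had the smallest SD of all 39 members over the positive arrays on the normalized scale, 0.04 and 0.06. As deposited, Aurka read 43.0, 31.1 and 1.87 and Plk1 30.6, 18.8 and 1.46 in positive replicates 1, 2 and 3. The brightest blank control in positive replicate 3 was 1.12. Aurka (Aurora A, of the centrosome) lay between 5.94 and 6.02 in the positive arrays and read 5.84, 6.07 and 6.69 in negative replicates 1, 2 and 3, a difference of -0.21 (SE 0.39). Plk1 (Polo-like kinase 1) read 5.57, 5.49 and 5.45 against a mean of 5.88 ± 0.36 (SD, n = 3), a difference of -0.37 (SE 0.36). Bub1 and Bub1b, of the spindle checkpoint, differed by -0.20 (SE 0.37) and 0.26 (SE 0.38, and -0.50 with arrays scaled to a common median). Aurkb (Aurora B, of the chromosomal passenger complex) and Kif11 (the spindle motor Eg5) differed by -0.53 each over 6 arrays and by -0.12 and -0.03 without positive replicate 3. Ccna2 (cyclin A2) differed by -0.50 (SE 0.54) and by 0.11 without that array.

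In wider lists of cell cycle genes none passed either. Of 17 further G1/S, 40 replication and 44 mitotic genes tested, limma called 0 in either direction, beside 0.0142% of all genes. At an unadjusted p under 0.05 it counted 0, 2 and 1, beside 5.17% of all genes. Lower in every positive array were 4, 6 and 1, beside 6.99% of all genes. Higher in every positive array were 0 of each list, beside 6.29%. The median differences of these lists were -0.25, -0.17 and -0.25 over 6 arrays, and -0.12, -0.04 and -0.02 without positive replicate 3. The 2 largest differences of each list were those of Cks2 (a Cdk-binding subunit) at -1.62 (SE 0.68), the condensin subunit Smc2 at -1.22 (SE 0.55), the helicase cofactor Gins1 at -1.13 (SE 0.52), the histone mRNA binder Slbp at -1.07 (SE 0.49), the ubiquitin ligase subunit Skp2 at -0.70 (SE 0.44) and the Rb1 relative Rbl1 at -0.66 (SE 0.48). Without positive replicate 3 these were -0.72, -0.66, -0.62, -0.78, -0.41 and -0.15. With array weights 1 gene of the wider replication list was called lower, beside 1.60% of all genes. No other gene of these lists was called in that fit.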

How the data were processed

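Total RNA of sorted cells was labelled with biotin and hybridized to Affymetrix arrays, per the labels. The deposited values are 1 linear intensity per probe set and array. For 1 of the 6 samples the submitters' processing notes name GCOS. How probes were summarized and arrays scaled is not given in the sources used here. After 64 control probe sets were set aside, the intensity values of 45037 probe sets were quantile normalized and transformed to log2(signal + 16), a scale that understates changes of dim genes and, with equal distributions, stretches noise in a dim array. Of these, 34945 had 1 gene in the platform annotation, 932 had several and 9160 were unnamed here, and 34741 symbols were matched through the RefSeq gene table (GRCm38.p6). Each of 18193 genes was represented by its brightest probe set. Genes whose mean did not exceed percentile 30 over named probe sets (4.22 on the log2 scale) were left out, and the other 14071 were tested with limma 3.58.1 (R 4.3.3), lmFit and eBayes with an intensity trend, Benjamini-Hochberg adjustment and a threshold of 0.05. In fits without an array the rest were normalized and filtered again. Only the limma fit was tested on simulated data, with independent noise for each array on the normalized log2 scale. Normalization, the pseudocount, the choice of probe set and the filter were not part of that test. P-values measure the spread between arrays, and only 3 arrays a group limit the precision. The labels do not say that positive and negative pools of equal size were the same embryos. In the sample titles, arrays of equal pool size carry neighbouring numbers. Deviations from the group means correlated at 0.127, 0.0331 and 0.109 for pools of 3, 5 and 2 embryos. For pools of unlike size they correlated at -0.131 to 0.0628. These values do not decide whether the pools were paired. The main fit used no block because the labels name none. Alternatives were another scaling, pseudocount, probe set rule and filter, array weights, a block for pool size and each array left out.

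All 40 members are named. Given array by array are those past the threshold or not overlapping, and the 3 with the largest difference in each group, and others were added after their values were seen. The wider lists are counted, with the 2 largest differences of each. The members, lists, markers and motifs were chosen with earlier results of these data known. Of 97 probe sets of the members, 30 genes had several, and for 11 a further probe set past the filter had the opposite sign (Bub1, Ccnd2, Cdk2, Cdk4, Kif11, Mcm2, Mcm3, Mcm5, Rrm1, Top2a and Tpx2).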

Additional observations from a re-analysis of the deposited data

How the results depend on the processing

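Each of 12 alternatives was run for every member, and 23 of the 39 kept the sign of their difference in all of them, among them Cdkn1a (0.76 to 2.08, adjusted p 0.0141 to 0.965) and Cdkn1b (-1.01 to -0.32, adjusted p 0.0293 to 0.965). No member passed in any alternative but array weights, which called 1 member higher and 4 lower and, over all genes, 255 higher and 225 lower. Against 2 genes higher and 0 lower over 6 arrays, scaling to a common median gave 9 higher and 3 lower, and a pseudocount of 64 and the mean over all probe sets of a gene each gave 0 higher. Leaving out each array in turn gave 0 to 77 higher and 0 to 7 lower, the most without positive replicate 3 and then, with 17 higher and 5 lower, without positive replicate 1. A replicate block for pool size called 2 genes and 0 members (lowest member adjusted p 0.681, limma) and changed no call of a member. Scaling to a common median moved the median difference of G1/S genes to -0.62, of inhibitors to -0.38, of replication genes to -0.91 and of mitotic genes to -0.57, with -0.09 for all genes, and turned the sign of Ccnd2 (-0.50), Cdk4 (-0.90), Cdkn1c (-0.50), Mcm6 (-0.39), Mki67 (-0.53), Top2a (-0.78) and Bub1b (-0.50). Array weights turned that of Cdk4 (-0.13), Mcm2 (0.32), Mcm7 (0.01), Ccna2 (0.19), Ccnb2 (0.54) and Cdk1 (0.47), and the mean over probe sets that of Mcm2 (0.23), Top2a (-0.07), Bub1 (0.18) and Aurka (0.01). With single arrays left out the signs of Ccnd3 (-0.47 to 0.32), Cdk4 (-0.31 to 0.24), Cdkn1c (-0.16 to 0.63), Mcm2 (-0.40 to 0.39), Mcm7 (-0.24 to 0.04), Tyms (-0.10 to 0.23), Ccna2 (-0.89 to 0.11), Ccnb2 (-0.64 to 0.45), Cdk1 (-0.25 to 0.36), Top2a (-0.13 to 0.21) and Aurka (-0.38 to 0.03) changed. The cause of these shifts was not tested. Signal over background limits all values of positive replicate 3.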
